A study of Mus musculus with 6 samples.

Results

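The mitochondrial ribosomal proteins are the nuclear-encoded proteins of the ribosome that works inside mitochondria. Members were taken as the genes whose mouse symbol begins with Mrpl or Mrps followed by a digit, which gave 78 of the 27998 genes in the deposited matrix, all annotated as protein-coding. By their known place in the mammalian ribosome, 51 belong to the large subunit and 26 to the small subunit. This count places Mrps18a and Mrps30 in the large subunit, where the mammalian proteins sit despite their names. Mrps36 belongs to neither, since its protein is known as a component of the alpha-ketoglutarate dehydrogenase complex of the tricarboxylic acid cycle.

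Mitochondrial ribosomes translate the few mRNAs of the mitochondrial genome, which all code for membrane subunits of the respiratory chain and the ATP synthase. Their ribosomal RNAs come from that genome, whereas every protein of both subunits is made by cytosolic ribosomes and imported. Some of these proteins have bacterial homologues and others exist only in mitochondria. Tunicamycin blocks N-linked glycosylation, so that unfolded proteins build up in the endoplasmic reticulum and the unfolded protein response starts.

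Single-cell RNA-seq was made from differentiated monolayers grown from mouse intestinal organoids, in 2 libraries for each of 3 groups. The groups were DMSO (the vehicle), tunicamycin for 13 h and tunicamycin for 25 h, both at 0.5 µg/ml. Tunicamycin was added on differentiation day 3 for the 25 h group, the 13 h cultures stood in DMSO for 12 h first, and all cultures were harvested on day 4. All 3 groups carried the same alleles, a Rosa26-floxed STOP-Cas9 crossed to cmv-cre on B6, so that the controls share the Cas9 and Cre background and the cmv promoter drives Cre. The tissue is labelled small intestine while the growth protocol names colonic spheroids, and neither the age of the mice nor the number of animals behind a culture is stated there. The series text calls the 2 libraries of a group biological replicates, so p-values measure the spread between such cultures.

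After quality filters 5026 of 5122 deposited cells remained, with 9432005 to 19539013 UMIs (unique molecular identifiers, each standing for 1 captured mRNA) per library. The authors' class of each cell was used as deposited. Enterocytes gave 1046 and 1037 cells with DMSO, 686 and 726 after 13 h and 426 and 447 after 25 h. Goblet cells gave 105 and 109, 77 and 75, and 98 and 86 cells in the same order. Enterocytes held 41654 to 76646 member UMIs per library, and all 78 members had a UMI in every enterocyte library. As a check of treatment in enterocytes, Hspa5, the chaperone BiP, differed from DMSO by a log2 fold change of 4.76 ± 0.11 (SE) at 13 h and 4.02 ± 0.10 at 25 h (edgeR adjusted p = 2.8e-13 and 1.8e-12). In all, 12 cell barcodes occurred in more than 1 library. In the goblet class the 9 goblet markers made up 19.7% and 18.4% of UMIs with DMSO, 11.4% and 12.2% after 13 h and 7.97% and 9.61% after 25 h. The 10 enterocyte markers summed there to 0.391% and 0.346% with DMSO and 0.218% and 0.196% after 13 h. After 25 h they were at 0.194% and 0.131%. In the enterocyte class 8 of 10 enterocyte markers passed the filter for testing, the others being Slc26a3 and Aqp8, and the summed share of the list was 0.694% and 0.669% with DMSO, 0.469% and 0.444% after 13 h and 0.341% and 0.338% after 25 h. Median depth per cell was 14757 to 17862 UMIs in enterocytes and 11573 to 13437.5 in goblet cells. Among markers of other cells, 2 of 4 immune, 5 of 8 enteroendocrine and 2 of 4 fibroblast markers had 0 UMIs in enterocytes. Per library the immune list summed to 1.15e-05% to 5.37e-05% of UMIs and the enteroendocrine list to 7.66e-06% to 6.88e-05%. The fibroblast list summed to 1.66e-05% to 5.15e-05%. Genes without a UMI included Ptprc and Cd3e of immune cells, Neurog3 and Pyy of enteroendocrine cells and Olfm4 of stem cells. The 10 proliferation markers summed to 0.00392% to 0.00406% in DMSO, 0.00371% to 0.00392% at 13 h and 0.00235% to 0.00268% at 25 h. Of the 5 stem cell markers 4 had UMIs in enterocytes and summed to 0.00662% and 0.00603% with DMSO, 0.00555% and 0.00552% after 13 h and 0.00300% and 0.00374% after 25 h, and of the 2 that could be tested 1 fell at 13 h and 2 at 25 h. The 9 goblet markers summed in the enterocyte class to 0.392% and 0.386% with DMSO, 0.334% and 0.324% after 13 h and 0.303% and 0.235% after 25 h. The part of these marker shifts in the results on the members was not tested.

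The summed level of the mitochondrial ribosomal proteins was higher after tunicamycin in both main classes. In enterocytes the 78 members together made up 0.440% and 0.445% of UMIs with DMSO, 0.484% and 0.498% after 13 h and 0.537% and 0.525% after 25 h. The groups did not overlap, and the means were 0.442% ± 0.00345, 0.491% ± 0.00973 and 0.531% ± 0.00865 (SD, n = 2 each), which is 1.11 times the DMSO mean at 13 h and 1.2 times at 25 h. In goblet cells the sum was 0.325% and 0.356% with DMSO, 0.469% and 0.467% after 13 h and 0.515% and 0.517% after 25 h. Goblet groups did not overlap either, and the ratios to DMSO were 1.37 at 13 h and 1.51 at 25 h. Since a share depends on what else a cell expresses, more member mRNA and less of other mRNA cannot be told apart in it. With the goblet markers, the mitochondrial genome and cytosolic ribosomal protein UMIs left out of the total, a denominator chosen after seeing the data, the goblet means were 0.481%, 0.638% and 0.727% in DMSO, 13 h and 25 h, and those of enterocytes were 0.540%, 0.614% and 0.690%.

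**Figure D1:**
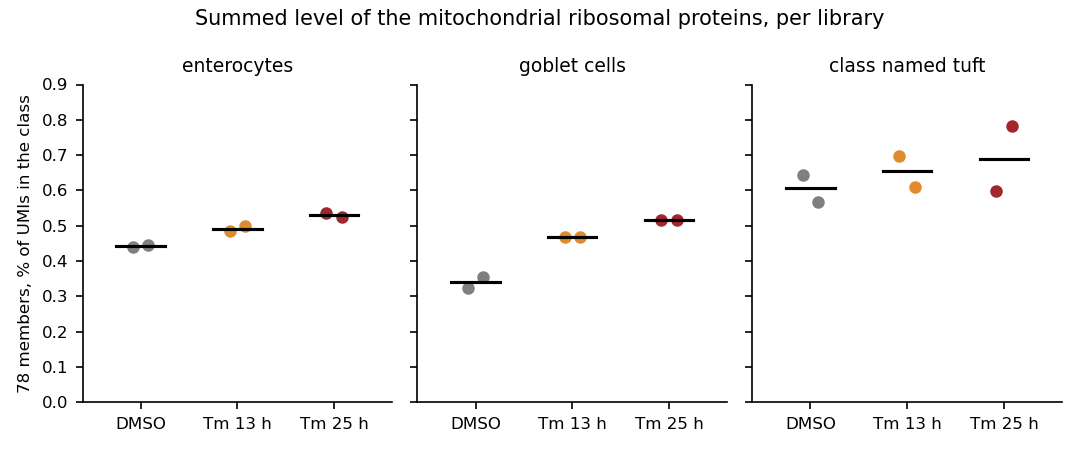
Percent of a class's UMIs that belong to the 78 members (y axis), for each library of DMSO, tunicamycin (Tm) 13 h and 25 h; points are libraries and bars are means. In enterocytes the DMSO libraries sit at 0.440% and 0.445% and the 25 h libraries at 0.537% and 0.525%, and in goblet cells the DMSO libraries at 0.325% and 0.356% and the 25 h libraries at 0.515% and 0.517%; the class named tuft overlaps between groups.

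Medians over single cells lay in the same order. Cells were thinned to 5000 UMIs each and the 75 shallower cells were left out, which kept 1033 of 1046 and 1024 of 1037 enterocytes with DMSO, 682 of 686 and 720 of 726 after 13 h and 424 of 426 and 443 of 447 after 25 h. For goblet cells it kept 97 of 105 and 102 of 109, 72 of 77 and 70 of 75, and 96 of 98 and 82 of 86. Among the cells kept, the median enterocyte carried 21 and 21 member UMIs with DMSO, 23 and 25 after 13 h and 26 and 26 after 25 h. The median number of different members seen in such an enterocyte was 17 and 17, 18 and 19, and 20 and 20. In goblet cells the medians were 15 and 16.5 member UMIs with DMSO, 22 and 20.5 after 13 h and 26 and 25 after 25 h. Cells of 1 library varied far more than the group medians did, since the 10th to 90th percentile of enterocytes ran from 13 to 31 UMIs in the first DMSO library and from 18 to 34 in the second 25 h library.

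Gene by gene, each member was tested in enterocytes with edgeR's quasi-likelihood test on UMIs summed per library, and a member was called changed at a Benjamini-Hochberg adjusted p below 0.05 over all 11145 genes tested. At 13 h, 37 of 78 members rose and 8 fell against DMSO, while 23.8% of all genes tested rose and 23.8% fell. At 25 h, 49 of 78 rose and 4 fell against DMSO, with backgrounds of 26.1% and 24.2%. The median log2 fold change of the members was 0.17 at 13 h and 0.28 at 25 h, beside 0.01 and 0.03 over all genes tested. Most changes were small: 2 called members reached a 2-fold difference at either time, both upward. The share of all genes past that cut-off was not counted. Members called higher had a median log2 fold change of 0.36 at 13 h and 0.50 at 25 h. Both comparisons share the 2 DMSO libraries, so their values are given side by side and not counted as separate support. Without the second 13 h library the number of members called higher at 13 h was 24 in place of 37. On cells thinned to 5000 UMIs, 23 members were called higher at 13 h and 30 at 25 h.

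**Figure D2:**
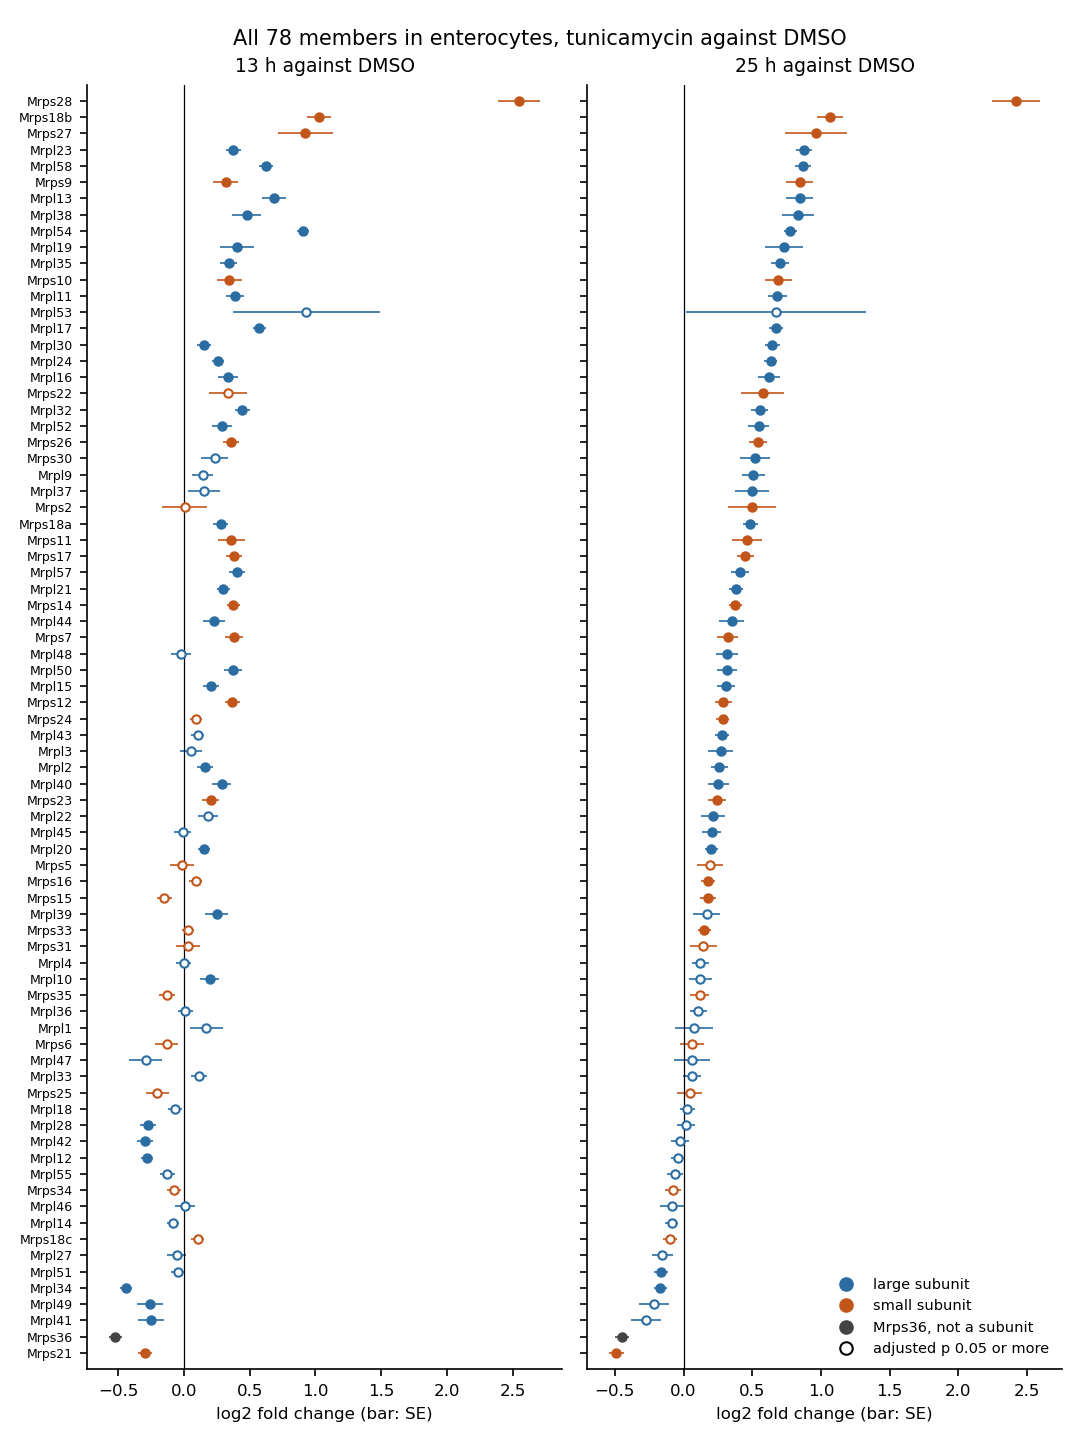
Log2 fold change in enterocytes (x axis, bars are SE) of all 78 members, one per line, at 13 h against DMSO (left) and 25 h against DMSO (right); filled points passed an adjusted p of 0.05. Most filled points lie right of 0, Mrps28 stands apart at 2.55 and 2.42, and Mrps36, Mrps21 and Mrpl34 are filled left of 0 in both panels.

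Both subunits took part. Of the 51 large-subunit members 25 rose and 6 fell at 13 h, and 31 rose and 2 fell at 25 h. Of the 26 small-subunit members 12 rose and 1 fell at 13 h, and 18 rose and 1 fell at 25 h. Proteins with bacterial homologues and those found only in mitochondria were both among them: at 25 h 17 of 30 large-subunit proteins with a bacterial homologue rose and 1 fell, and of the 21 without one 14 rose and 1 fell. In the small subunit 12 of 16 with a homologue rose and 1 fell, and 6 of 10 without one rose. Of the paralogues related to bacterial protein S18, only Mrps18c was counted as having a homologue. Mrps18a and Mrps18b, which both rose, stood among those without one. Large-subunit members made up 0.295% and 0.298% of UMIs with DMSO, 0.330% and 0.341% after 13 h and 0.373% and 0.365% after 25 h. Small-subunit members gave 0.132% and 0.133%, 0.145% and 0.148%, and 0.154% and 0.149%, and in both subunits the groups were separate.

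Mrps28, a small-subunit protein counted here among those with a bacterial homologue (GRCm38 chr3:8802146-8923918, minus strand), differed most. It had 2.05 and 2.44 CPM with DMSO, 13.0 and 13.4 after 13 h and 11.1 and 13.0 after 25 h. CPM stands for UMIs of the gene per 1000000 UMIs of the class in that library, counted over the genes that passed the filter and scaled by TMM (trimmed mean of M-values, edgeR's default scaling), whereas shares in percent are of all UMIs, unscaled. Every tunicamycin library lay above both DMSO libraries, and the groups at 13 h and 25 h overlapped. Its counts were low, with 35 and 40 UMIs with DMSO, 158 and 178 after 13 h and 88 and 113 after 25 h. The fold change was 5.85 at 13 h (log2 2.55 ± 0.16, edgeR adjusted p = 1.24e-08) and 5.36 at 25 h (log2 2.42 ± 0.18, adjusted p = 4.88e-08). The next gene on the same strand, Tpd52, lies 1674 bases away and had 378 and 392 CPM with DMSO, 325 and 320 after 13 h and 313 and 318 after 25 h. Tpd52 fell by 0.26 on the log2 scale at 13 h and by 0.29 at 25 h (adjusted p = 0.000246 and 9.77e-05), the opposite direction to Mrps28.

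The Mrps18 paralogues, which are related to bacterial protein S18, moved unequally. Mrps18b (chr17:35910379-35916389, minus strand) had 25.9 and 27.1 CPM with DMSO, 47.7 and 59.6 after 13 h and 53.6 and 57.2 after 25 h, and every tunicamycin library lay above both DMSO libraries. Its fold change was 2.03 at 13 h and 2.09 at 25 h (edgeR adjusted p = 5.04e-07 and 5.12e-07). Mrps18a (chr17:46110986-46128910) had 52.6 and 56.0 CPM with DMSO, 64.6 and 67.0 after 13 h and 75.7 and 76.5 after 25 h, with log2 fold changes of 0.28 and 0.49 (adjusted p = 0.000781 and 6.98e-06). For Mrps18c (chr5:100798627-100804471) the values were 88.7 and 87.3, 97.2 and 92.1, and 82.5 and 82.0 CPM, and neither time passed the test against DMSO (log2 0.10 and -0.10, adjusted p = 0.095 and 0.137). Both Mrps18b and Mrps18c have a near-identical copy of their 3' end elsewhere in the genome that is not among the genes of the matrix, so their counts could include or lose reads of that copy. The same holds for Mrpl23, Mrpl30, Mrpl41, Mrpl42, Mrps10 and Mrps21.

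Among large-subunit members, Mrpl54 rose most at 13 h. It had 84.7 and 82.8 CPM with DMSO, 159 and 155 after 13 h and 144 and 143 after 25 h, with log2 fold changes of 0.91 ± 0.05 and 0.78 ± 0.05 (edgeR adjusted p = 1.11e-09 and 8.44e-09). All 3 groups were separate, with the 13 h libraries highest. Mrpl58, a peptidyl-tRNA hydrolase built into the large subunit that frees stalled ribosomes, had 38.2 and 37.6 CPM with DMSO, 59.1 and 57.8 after 13 h and 70.5 and 68.3 after 25 h (log2 0.62 ± 0.06 and 0.87 ± 0.06). Mrpl13, whose bacterial homologue acts early in assembly of the large subunit, had 14.5 and 13.7 CPM with DMSO, 23.7 and 21.9 after 13 h and 23.8 and 26.9 after 25 h (log2 0.69 ± 0.09 and 0.84 ± 0.10). For Mrpl58 the groups were separate and in time order, and for Mrpl13 the 2 tunicamycin groups were above DMSO and nearly touched. Of proteins that line the exit of the nascent chain, Mrpl17 had 66.9 and 66.8 CPM with DMSO, 97.8 and 101 after 13 h and 105 and 107 after 25 h, and Mrpl24 had 143 and 147, 175 and 172, and 222 and 229 CPM. Mrpl32, which the m-AAA protease matures before it joins the ribosome, had 50.7 and 55.5 CPM with DMSO, 73.8 and 70.7 after 13 h and 79.3 and 76.6 after 25 h (log2 0.44 ± 0.06 and 0.55 ± 0.06). All of these members passed the test at both times.

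In the small subunit, Mrps27, a pentatricopeptide-repeat protein (chr13:99344786-99415562, plus strand), had 2.29 and 2.26 CPM with DMSO, 4.36 and 4.29 after 13 h and 3.90 and 4.96 after 25 h. Its log2 fold changes were 0.92 ± 0.21 and 0.96 ± 0.23 (edgeR adjusted p = 0.0022 and 0.00285), and without the second 25 h library the adjusted p at 25 h was 0.0604. Mrps12, which lies at the decoding site, had 56.4 and 56.3 CPM with DMSO, 72.6 and 73.0 after 13 h and 65.3 and 72.2 after 25 h (log2 0.37 ± 0.06 and 0.29 ± 0.06, adjusted p = 8.27e-05 and 0.00101). Mrps14 had 84.8 and 87.6, 113 and 111, and 112 and 112 CPM, a difference of 0.38 on the log2 scale at both times. In each of these the tunicamycin libraries lay above the DMSO libraries and the 2 tunicamycin groups were close together or overlapped.

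A few members went down. Mrps36, the alpha-ketoglutarate dehydrogenase component (chr13:100735955-100744659, minus strand), had 129 and 135 CPM with DMSO, 94.6 and 89.9 after 13 h and 95.4 and 98.6 after 25 h. Its log2 fold change was -0.52 ± 0.05 at 13 h and -0.45 ± 0.05 at 25 h (edgeR adjusted p = 1.01e-06 and 5.96e-06). Mrps21, a small-subunit protein with a bacterial homologue (chr3:95862634-95871519, minus strand), had 266 and 256 CPM with DMSO, 211 and 213 after 13 h and 175 and 196 after 25 h. It fell by 0.30 and by 0.49 on the log2 scale (adjusted p = 0.000331 and 4.17e-06). Mrpl34 (chr8:71464959-71465747, plus strand) had 152 and 156 CPM with DMSO, 113 and 115 after 13 h and 136 and 138 after 25 h, so that both tunicamycin groups lay below DMSO and the 13 h group lay lowest (log2 -0.44 ± 0.04 and -0.17 ± 0.05, adjusted p = 2.25e-06 and 0.00703). Mrpl51 fell by 0.16 at 25 h (adjusted p = 0.0158), and this call was lost without the first DMSO library (0.0799) or the second 25 h library (0.0579).

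Lower values at 13 h with DMSO-like values at 25 h were seen for Mrpl12, which forms the stalk of the large subunit. It had 110 and 108 CPM with DMSO, 90.2 and 89.4 after 13 h and 108 and 105 after 25 h, with log2 differences of -0.28 ± 0.05 at 13 h and -0.04 ± 0.05 at 25 h against DMSO (edgeR adjusted p = 0.000197 and 0.504). The 13 h libraries lay below all others. Mrpl28 and Mrpl42 also fell at 13 h, by 0.27 and 0.29 on the log2 scale (adjusted p = 0.00224 and 0.00119), and stood at 0.02 and -0.02 at 25 h. Mrpl41 and Mrpl49 just passed at 13 h (adjusted p = 0.0495 and 0.0485), and each call was lost on leaving out either DMSO library (0.144 and 0.104 for Mrpl41, 0.198 and 0.0679 for Mrpl49) or the first 13 h library (0.237 and 0.238). Mrpl49 overlaps Syvn1 on the opposite strand by 91 bases, and Syvn1, a ubiquitin ligase of the endoplasmic reticulum, rose by 2.65 on the log2 scale at 13 h (adjusted p = 7.19e-13); whether strand was used in counting is unstated in the labels. In all, 18 members passed at neither time, among them Mrpl33, Mrpl14 and Mrpl53, of which the last had 49 UMIs over all enterocyte libraries. Mrpl53 lies within Gm42688 on the same strand and shares its last 300 bases with it. Gm42688 is also in the matrix, so reads of Mrpl53 could have been lost or counted there. Mrps6, Mrps24 and Mrps34 also overlap another coding gene on the same strand.

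**Figure D3:**
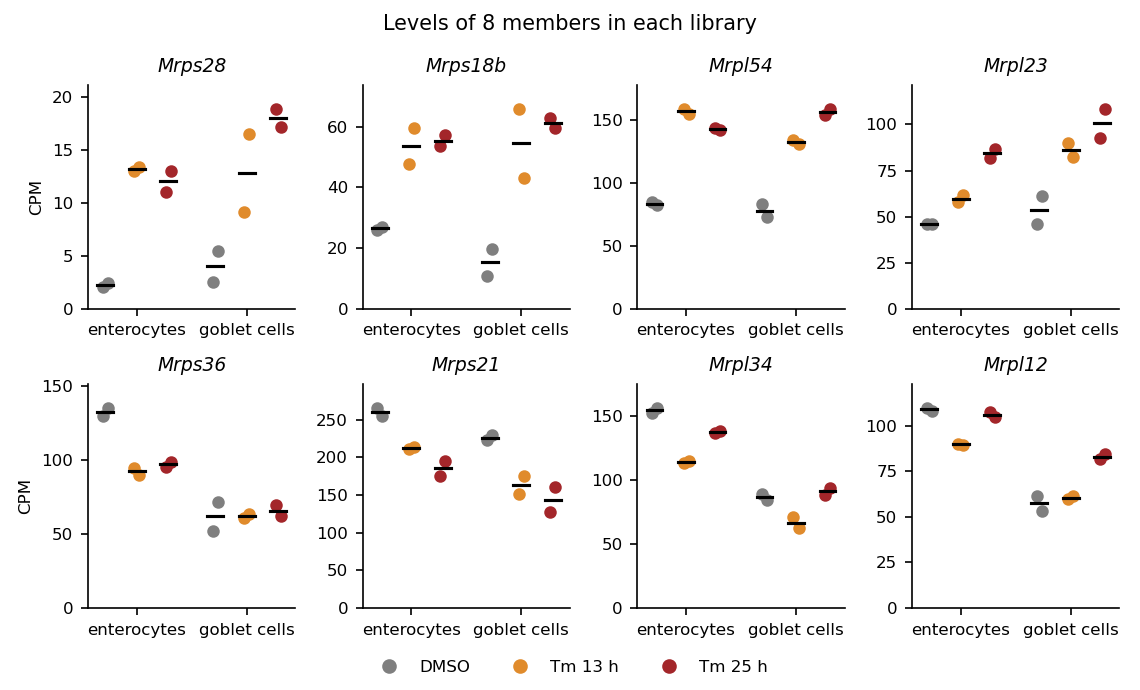
CPM (y axis) of 8 members in each library of enterocytes and goblet cells, with DMSO, Tm 13 h and Tm 25 h from left to right in each class; points are libraries and bars are means. The upper members are higher after tunicamycin in both classes, with Mrps28 in enterocytes between 11.1 and 13.4 CPM after tunicamycin and at 2.05 and 2.44 CPM in DMSO; in the lower row Mrps36 in enterocytes is at 94.6 and 89.9 CPM at 13 h and 129 and 135 CPM in DMSO, and Mrpl12 in enterocytes is lowest at 13 h.

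Promoters are shown for a pair of members that rose and a pair that fell, each as the 250 bases before the annotated start, from RefSeq on GRCm38.p6. These lie at chr17:35916441-35916690 (minus strand) for Mrps18b, chr13:99344536-99344785 (plus) for Mrps27, chr13:100744660-100744909 (minus) for Mrps36 and chr3:95871515-95871764 (minus) for Mrps21. Capitals mark a match to 1 of 7 motifs searched on both strands, none of which contains another.
Mrps18b: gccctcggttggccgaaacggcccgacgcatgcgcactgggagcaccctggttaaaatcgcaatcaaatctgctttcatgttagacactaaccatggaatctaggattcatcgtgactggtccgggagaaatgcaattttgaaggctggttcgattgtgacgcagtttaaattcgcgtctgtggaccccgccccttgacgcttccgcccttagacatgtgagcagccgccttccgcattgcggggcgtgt
Mrps27: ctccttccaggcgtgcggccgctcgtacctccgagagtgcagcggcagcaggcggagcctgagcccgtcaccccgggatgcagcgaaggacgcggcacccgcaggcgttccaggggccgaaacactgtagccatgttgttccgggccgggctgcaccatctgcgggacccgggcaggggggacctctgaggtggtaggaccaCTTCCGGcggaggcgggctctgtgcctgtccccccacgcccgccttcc
Mrps36: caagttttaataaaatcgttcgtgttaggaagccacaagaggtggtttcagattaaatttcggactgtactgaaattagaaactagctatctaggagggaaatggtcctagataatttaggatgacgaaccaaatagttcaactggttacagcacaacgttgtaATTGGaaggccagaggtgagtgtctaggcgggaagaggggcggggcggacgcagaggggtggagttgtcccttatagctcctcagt
Mrps21: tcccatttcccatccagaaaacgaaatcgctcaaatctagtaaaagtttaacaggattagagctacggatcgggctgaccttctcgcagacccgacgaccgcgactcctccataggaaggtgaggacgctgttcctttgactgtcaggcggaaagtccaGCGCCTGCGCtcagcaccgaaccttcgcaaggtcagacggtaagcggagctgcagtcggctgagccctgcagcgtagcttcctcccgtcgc
The capitals in Mrps27 are the ETS motif CCGGAAG on the other strand, those in Mrps21 are the NRF1 motif, which reads GCGC and TGCGC with 1 base of any kind between, and those in Mrps36 are a CCAAT box on the other strand. Not printed here are Mrpl23, which rose and held no match, and Mrpl34, which fell and held the ETS motif. The ETS motif thus stood in members of both directions. Of the 78 members 69 had a promoter in the table. The NRF1 motif stood in 10 of these 69 (14.5%), beside 4.23% of all 27025 genes with a promoter there, and the ETS motif in 18 (26.1%), beside 7.83%. The YY1 motif AAGATGG stood in 8.70% of members and 5.18% of all genes, the CCAAT box in 36.2% and 37.5%, the E-box CACGTG in 7.25% and 6.86% and the CRE TGACGTCA in 2.9% and 1.77%. No member promoter held TGATGNAA, a form of the ATF4 composite element, which 3.91% of all genes held. A match is a run of letters and not a bound site, and NRF1 names the motif here, not the gene.

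Between the 2 times themselves, tested as 25 h against 13 h in enterocytes, 23 of 78 members rose and 2 fell, beside 10.4% and 10.9% of all genes. The median log2 difference was 0.11 over the members and 0.00 over all genes. Large-subunit members made up 18 of those that rose, of 51, and small-subunit members 5 of 26. Mrpl23, at the exit of the nascent chain (chr7:142532686-142540747, plus strand), had 46.0 and 46.1 CPM with DMSO, 57.9 and 61.5 after 13 h and 82.0 and 86.8 after 25 h. All 3 groups were separate, and 25 h was above 13 h by 0.50 ± 0.06 on the log2 scale (edgeR adjusted p = 3.39e-05). For Mrps9 (chr1:42851233-42905683) the values were 25.3 and 22.6 CPM at 25 h and 15.9 and 17.1 at 13 h, a log2 difference of 0.53 ± 0.10 (adjusted p = 0.0015), and for Mrpl30 they were 218 and 230 against 154 and 164 CPM, a difference of 0.49 ± 0.05 (adjusted p = 1.49e-05). Mrpl12 and Mrpl34 were also higher at 25 h than at 13 h, by 0.24 ± 0.05 and 0.27 ± 0.05 (adjusted p = 0.00345 and 0.00111). Mrps28 did not pass here (log2 -0.13 ± 0.13, adjusted p = 0.553), nor did Mrpl54 (-0.13 ± 0.05, 0.0585). The 2 that fell were Mrps21, at 175 and 196 CPM at 25 h and 211 and 213 at 13 h, and Mrps18c; the first was lost without either 13 h library (0.0757 and 0.107) or the first 25 h library (0.175), and the second without the first 13 h library (0.0965) or the second 25 h library (0.0636). Without the first 13 h library 10 members rose in place of 23, and without the first 25 h library 14. DESeq2 called 7 higher and thinning left 6.

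Goblet cells, with fewer cells and a median of 303 UMIs per member over all 6 libraries, gave 75 members that could be tested among 7839 genes. At 13 h, 20 of 75 rose and 1 fell against DMSO, beside 10.8% and 11.5% of genes. At 25 h, 38 rose and 1 fell, beside 15.8% and 16.0%. The median log2 fold change of the members was 0.46 at 13 h and 0.60 at 25 h, beside -0.01 and -0.00 over all genes. On scaling by total counts in place of TMM, the median over all goblet genes moved to 0.16 at 13 h and 0.13 at 25 h. The count at 13 h rested on single libraries: it was 5 without the first DMSO library, 10 without the second, 9 without the first 13 h library and 12 without the second. It was 3 with DESeq2, 5 on cells thinned to 5000 UMIs and 35 with total-count scaling. At 25 h the count was 14 with DESeq2 and 20 on thinned cells, and 22 without the first DMSO library and 25 without the second 25 h library. Between 25 h and 13 h edgeR called 0 members and DESeq2 called 0, with 13 at an unadjusted p under 0.05, beside 2.03% of genes higher and 1.47% lower.

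Both classes come from the same 6 libraries, and their calls overlapped over all genes as well as over the members. Among the 75 members tested in both classes, 34 rose in both at 25 h, which is 89.5% of the 38 that rose in goblet cells and 72.3% of the 47 that rose in enterocytes. Over all 7794 genes tested in both, the shares were 87.2% of goblet calls and 45% of enterocyte calls. At 13 h 17 members rose in both, 85% of goblet and 47.2% of enterocyte calls, beside 88.3% and 32.7% over all genes. The share of goblet calls was thus near that of all genes at both times. Mrps21 fell in both classes at both times, at 223 and 230 CPM with DMSO, 151 and 175 after 13 h and 128 and 160 after 25 h in goblet cells; the call at 13 h was lost without either DMSO library (0.0769 and 0.0784) or the first 13 h library (0.158). Mrps18b had 10.9 and 19.7 CPM with DMSO, 66.0 and 43.1 after 13 h and 62.9 and 59.4 after 25 h, a log2 fold change of 1.82 ± 0.28 and 1.98 ± 0.26 (edgeR adjusted p = 7.22e-05 and 7.68e-06). Mrpl54 had 83.2 and 73.1 CPM with DMSO, 135 and 131 after 13 h and 154 and 159 after 25 h (log2 0.77 ± 0.14 and 1.01 ± 0.14). In both genes every tunicamycin library was above both DMSO libraries.

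Mrps28 was scarce in goblet cells, with 3 and 7 UMIs with DMSO, 10 and 18 after 13 h and 28 and 22 after 25 h, or 2.52 and 5.50, 9.16 and 16.5, and 18.9 and 17.2 CPM. The groups did not overlap with DMSO, and the log2 fold change was 1.64 ± 0.51 at 13 h and 2.13 ± 0.45 at 25 h (edgeR adjusted p = 0.0247 and 0.00114). The call at 13 h was lost without the first DMSO library (0.205) or the second 13 h library (0.265). The share of all goblet genes past a 2-fold cut-off was not counted. Among members, 14 of the 75 tested were called and at least 2-fold higher at 25 h in goblet cells. Mrpl37 was among them at 1.75 ± 0.47, with only 1.68 and 7.08 CPM with DMSO, 11.9 and 11.9 after 13 h and 14.2 and 16.4 after 25 h, and the call was lost without the first DMSO library (0.127).

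In DMSO alone, goblet cells against enterocytes, 3 of 77 members were higher in goblet cells and 21 lower, beside 17.0% and 18.1% of all genes, in a fit with the library as a block. The median log2 difference over the members was -0.24, beside -0.02 over all genes. Mrps15, a small-subunit protein whose bacterial homologue binds ribosomal RNA early, had 27.7 and 20.4 CPM in goblet cells and 63.9 and 61.4 in enterocytes (log2 -1.30 ± 0.17, edgeR adjusted p = 7.84e-08). Mrps36 had 52.1 and 71.6 CPM in goblet cells and 129 and 135 in enterocytes (-1.01 ± 0.12, 8.01e-09), and Mrpl42 had 50.4 and 60.5 against 109 and 115 (-0.93 ± 0.12, 7.04e-08). Goblet cells were higher for Mrpl15, at 86.5 and 79.4 CPM against 51.5 and 51.3 in enterocytes (0.77 ± 0.13, 3.51e-06), and for Mrps12, at 81.5 and 77.8 against 56.4 and 56.3 (0.59 ± 0.12, 0.000154). The third, Mrps10, was lost without either DMSO library (0.0755 and 0.134). None of these pairs overlapped between classes. Without the first DMSO library 9 members were lower in place of 21, with DESeq2 10, and with total-count scaling 37. At 13 h 4 members were higher in goblet cells and 7 lower, beside 12.5% and 16.7% of genes, with a median of -0.04, and at 25 h 10 were higher and 11 lower, beside 14.8% and 17.6%, with a median of -0.02.

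Whether the response differed between classes was tested as the class by group interaction, that is, the goblet log2 fold change minus that of enterocytes. At 13 h edgeR called 0 of 77 members, with 12 at an unadjusted p under 0.05, beside 1.48% of genes higher and 3.33% lower; DESeq2 called 0. At 25 h 4 members had a larger value in goblet cells (Mrps15, Mrps35, Mrpl52 and Mrpl12) and 1 a smaller value (Mrpl15), beside 2.55% and 4.5% of genes, and DESeq2 called 0. The median interaction was 0.20 at both times, beside -0.08 and -0.05 over all genes. None of the 5 held with each library left out in turn. Mrps28, Mrps18b and Mrps36 did not pass at 25 h (log2 -0.29 ± 0.55, 0.89 ± 0.30 and 0.50 ± 0.18, adjusted p = 0.862, 0.0639 and 0.0903).

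**Figure D4:**
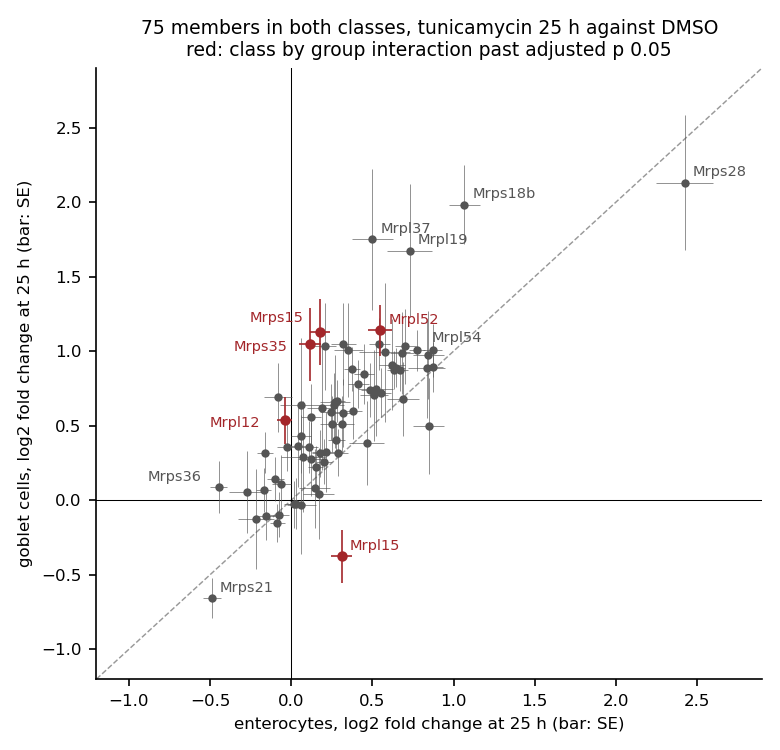
Log2 fold change at 25 h against DMSO in goblet cells (y axis) and in enterocytes (x axis) of the 75 members tested in both, with SE bars; the dashed line marks equal values. Mrps28 and Mrps18b lie at upper right, Mrps21 at lower left, and the 5 red members passed the interaction test, among them Mrpl15 at 0.31 in enterocytes and -0.37 in goblet cells; both classes come from the same libraries.

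The class named tuft was small, with 27 and 19 cells with DMSO, 17 and 20 after 13 h and 13 and 12 after 25 h, and was not tested. Its 9 tuft markers summed to 0.00516% and 0.00818% of UMIs with DMSO, 0.0209% and 0.0527% after 13 h and 0.0406% and 0.0108% after 25 h, beside 0.000149% to 0.00034% in enterocytes. Enteroendocrine markers, of which 4 of 8 had a UMI there, summed to 0.00700% and 0.0164%, 0.00129% and 0.00711%, and 0.00608% and 0.00667%, so that in both DMSO libraries they lay above the tuft markers. Goblet markers summed to 0.268% and 0.684%, 0.0859% and 0.186%, and 0.409% and 0.0425%, and enterocyte markers to 0.0967% and 0.478%, 0.0476% and 0.0609%, and 0.152% and 0.0406%. The name of this class is therefore only the authors' label, and the part of these markers in the values below was not tested. The members together made up 0.645% and 0.568% of its UMIs with DMSO, 0.698% and 0.610% after 13 h and 0.597% and 0.784% after 25 h, so the groups overlapped. Mrps28 stood at 39.1 and 23.3 CPM in DMSO, from 31 and 7 UMIs, 60.7 and 43.4 at 13 h and 29.7 and 52.2 at 25 h.

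Around the ribosome, genes that make or serve it were described by lists of their kinds, to be read beside the 23.8% of all enterocyte genes that rose and 23.8% that fell at 13 h and the 26.1% and 24.2% at 25 h. Of 5 subunits named otherwise, 3 rose at 13 h and 4 at 25 h in enterocytes, and none fell. Gadd45gip1, a large-subunit protein, had 33.4 and 34.3 CPM with DMSO, 47.1 and 46.6 after 13 h and 48.6 and 57.1 after 25 h (log2 0.47 ± 0.07 and 0.64 ± 0.08, edgeR adjusted p = 0.000101 and 7.19e-06). Dap3, the GTP-binding protein of the small subunit, rose at 25 h by 0.25 ± 0.06. Of 26 assembly factors 4 rose at 13 h, and 9 rose and 1 fell at 25 h, with medians of 0.14 and 0.32. The shares that rose, 15.4% and 34.6%, lay below that of all genes at 13 h and above it at 25 h. Tfb1m, the methyltransferase of the small-subunit ribosomal RNA, had only 0.998 and 1.34 CPM with DMSO, 2.71 and 2.78 after 13 h and 4.28 and 2.65 after 25 h (log2 1.23 ± 0.30 and 1.55 ± 0.32, adjusted p = 0.00401 and 0.000958).

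Of 13 mitochondrial translation factors tested, 2 rose and 1 fell at 13 h, and 5 rose at 25 h, with medians of -0.00 and 0.29. The shares of these genes called higher, 15.4% and 38.5%, lay below that of all genes at 13 h and above it at 25 h. Mrrf, the ribosome recycling factor, had 8.92 and 9.65 CPM with DMSO, 15.4 and 15.6 after 13 h and 17.8 and 16.8 after 25 h (log2 0.74 ± 0.10 and 0.90 ± 0.11). Of the elongation factors that work as a pair, Tsfm rose by 0.89 ± 0.13 and 0.91 ± 0.14, whereas Tufm fell by 0.34 at 13 h (edgeR adjusted p = 0.000853) and stood at -0.18 ± 0.07 at 25 h (0.0574). Oxa1l, which inserts the products of these ribosomes into the inner membrane, was at 0.02 ± 0.07 at 13 h and rose by 0.58 ± 0.07 at 25 h. Of 19 genes of mitochondrial transcription and RNA handling, 3 rose at 13 h, and 6 rose and 1 fell at 25 h. The shares that rose, 15.8% and 31.6%, were below that of all genes at 13 h and near it at 25 h. Of 22 import genes, 10 rose and 1 fell at 13 h, and 14 rose and 3 fell at 25 h. The shares of import genes that rose were 45.5% and 63.6%. Tomm20, an outer-membrane receptor, was at 191 and 210 CPM with DMSO, 246 and 245 after 13 h and 291 and 274 after 25 h.

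The mRNAs that mitochondrial ribosomes translate went the other way. Of the 13 protein-coding genes of the mitochondrial genome, 5 fell and none rose at 13 h, and 9 fell and 1 rose at 25 h, with median log2 fold changes of -0.09 and -0.29. The shares of these genes called lower were thus 38.5% and 69.2%, beside 23.8% and 24.2% of all genes. mt-Co1, a catalytic subunit of cytochrome c oxidase, fell by 0.14 and by 0.40 (edgeR adjusted p = 0.00512 and 5.39e-07), while mt-Cytb rose by 0.13 at 25 h (0.0186). Their summed share in enterocytes was 9.53% and 9.41% with DMSO, 9.05% and 9.34% after 13 h and 8.30% and 7.95% after 25 h. Cells over 25% mitochondrial UMIs had been removed, a filter that bears directly on this share. Cytosolic ribosomal proteins mostly rose: of 81 tested, 65 rose at 13 h and 74 at 25 h and none fell, with medians of 0.30 and 0.84. In goblet cells at 25 h, 7 of 12 mitochondrial genome mRNAs tested fell, all 81 cytosolic ribosomal proteins tested rose and 11 of 20 import genes rose. Over all goblet genes tested, 15.8% rose and 16.0% fell at that time.

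The level of the members relative to these lists moved in opposite directions. Per 100 UMIs of the mitochondrial genome, enterocytes had 4.61 and 4.72 member UMIs with DMSO, 5.35 and 5.33 after 13 h and 6.46 and 6.60 after 25 h. Per 100 UMIs of cytosolic ribosomal proteins they had 5.31 and 5.37 with DMSO, 4.65 and 4.70 after 13 h and 3.81 and 3.41 after 25 h. Goblet cells gave means of 7.00, 10.5 and 14.6 per 100 mitochondrial genome UMIs and 6.43, 4.5 and 3.10 per 100 cytosolic ribosomal protein UMIs, in the same order. No groups overlapped in either class. Among nuclear regulators of mitochondrial genes in enterocytes, Ppargc1a, a coactivator of mitochondrial biogenesis, fell by 0.87 at 13 h and by 0.60 at 25 h (edgeR adjusted p = 3.72e-08 and 2.45e-06), at 86.0 and 79.2 CPM with DMSO, 46.8 and 43.5 after 13 h and 54.8 and 54.3 after 25 h. Its partner Esrra, a nuclear receptor, fell by 0.36 and by 0.27 (3.78e-05 and 0.00055). Of the 9 regulators listed, 6 rose (66.7%) and 2 fell (22.2%) at 13 h, beside 23.8% and 23.8% of all genes, with a median of 0.23. Ppargc1a and Esrra, the 2 that fell, thus went against most of the list at 13 h. Myc was among those that rose at both times. At 25 h 2 rose and 2 fell, near the shares of all genes.

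**Figure D5:**
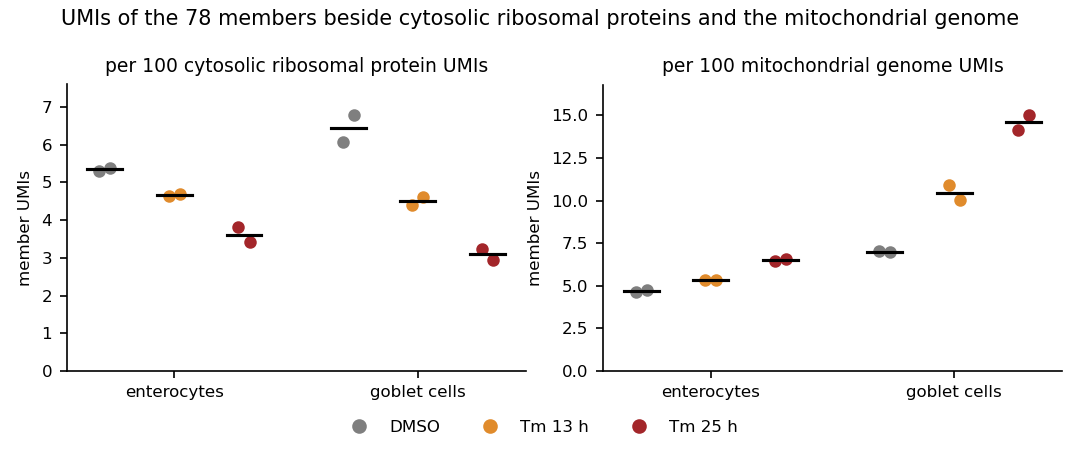
UMIs of the 78 members per 100 UMIs of cytosolic ribosomal proteins (left) and per 100 UMIs of the mitochondrial genome (right), per library, for enterocytes and goblet cells, with DMSO, Tm 13 h and Tm 25 h from left to right; points are libraries and bars are means. In enterocytes the left ratio is 5.31 and 5.37 in DMSO and 3.81 and 3.41 at 25 h, and the right ratio is 4.61 and 4.72 in DMSO and 6.46 and 6.60 at 25 h.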

How the data were processed

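Single-cell libraries of 10x 3' V2 chemistry were analysed from the matrix of raw UMI counts per gene and cell as the authors deposited it; Cell Ranger and mm10 are named in the submitters' processing notes, and no version, rule for choosing the deposited cells or rule for assigning classes is given in the sources used here. Kept cells had 1000 UMIs or more, 500 genes or more and no more than 25% of UMIs from the mitochondrial genome; 27 doublets (0.527%) called by Scrublet in scanpy 1.11.5 stayed in. Libraries were found from the cell names. Of 27998 Ensembl IDs 27722 matched a GENCODE symbol on GRCm38. UMIs were summed per library and class and tested with edgeR 4.0.16 (R 4.3.3; quasi-likelihood F test, filterByExpr, TMM, Benjamini-Hochberg over all genes), with 1 fit per class over 6 libraries. Enterocytes and goblet cells were also fitted together over their class sums, with the library as a block and class, group and their interaction as terms. CPM values are UMIs per 1000000 UMIs of the class in a library, over genes passing filterByExpr and with TMM scaling; percent shares are of all UMIs, unscaled.

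Alternatives were DESeq2 1.42.0, RLE and total-count scaling, no filter on low counts, other cell filters, doublets removed, thinning to 5000 UMIs, all cells, a replicate block and each library left out. The fits were tested on simulated counts. There a 2-fold change was recovered for 92.4% and 83.3% of the enterocyte genes changed at 13 h and 25 h. In goblet cells it was recovered for 48.5% at both times, and for the interaction at 25 h for 19.7%. A gene not called in those fits could thus still have changed. Near copies were sought with BLAST 2.17.0 on the last 300 bases of transcripts (at least 95% identity over at least 150 bases). Members named were the 10 highest and 10 lowest called per enterocyte comparison, those called against the majority, up to 10 called per goblet or interaction comparison, the Mrps18 paralogues, those with the highest mean CPM, and up to 3 genes per list. Tpd52 and Syvn1, as neighbours, Mrpl53, which was not called in enterocytes, and Mrpl37 and mt-Cytb fall outside these rules and were named after their values were seen. The members and lists were chosen with earlier results of these data known. Counting precision is limited by UMIs per gene.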

Additional observations from a re-analysis of the deposited data

Results flagged for a closer look

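For 5 members the log2 fold change at 25 h against DMSO differed between goblet cells and enterocytes by the class by group interaction (edgeR, given as the goblet value minus the enterocyte value). Mrps15 had 27.7 and 20.4 CPM with DMSO, 42.1 and 31.2 after 13 h and 54.8 and 50.0 after 25 h in goblet cells, and 63.9 and 61.4, 55.1 and 57.9, and 74.2 and 67.9 CPM in enterocytes. Its interaction was 0.91 ± 0.23 (adjusted p = 0.00914), which was lost without the second DMSO library (0.143). Mrps35 had 17.6 and 21.2, 33.9 and 28.4, and 34.5 and 46.9 CPM in goblet cells, and 42.4 and 39.5, 37.6 and 37.3, and 45.6 and 43.4 in enterocytes, an interaction of 0.89 ± 0.26 (adjusted p = 0.0303; lost without either DMSO library, at 0.321 and 0.0616, or the second 25 h library, at 0.359). Both genes were lower in goblet cells than in enterocytes in DMSO, so the classes lay closer together at 25 h.

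Mrpl52 differed by 0.56 ± 0.17 (adjusted p = 0.037) and was lost without either DMSO library (0.303 and 0.0778) or either 25 h library (0.0798 and 0.11). Mrpl12 differed by 0.54 ± 0.17 (adjusted p = 0.0445) and was lost without any 1 of the 6 libraries, with adjusted p from 0.0534 to 0.213. Mrpl15 went the other way at -0.72 ± 0.18 (adjusted p = 0.00595), with 86.5 and 79.4 CPM with DMSO, 56.8 and 86.2 after 13 h and 60.9 and 67.2 after 25 h in goblet cells and 51.5 and 51.3, 56.8 and 62.0, and 61.4 and 66.1 CPM in enterocytes. It was lost without either DMSO library (0.132 and 0.0512) or the first 25 h library (0.147).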

How the results depend on the processing

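Over the 165 calls on named members no alternative turned a direction, and 379 of the values recomputed lost the threshold while 2154 stayed on the same side. Goblet cells against enterocytes at 13 h and 25 h were not part of this check, nor were the named genes of the lists. Thinned to 5000 UMIs per cell, enterocytes gave 23 higher and 5 lower at 13 h, 30 higher at 25 h, and 6 higher and 1 lower at 25 h against 13 h; goblet cells gave 5 higher at 13 h and 20 at 25 h, and the interaction 1 higher at 13 h and 1 higher and 0 lower at 25 h. Of the members called in enterocytes against DMSO, 31 of 45 at 13 h and 39 of 53 at 25 h stayed called in the same direction with DESeq2. It gave 7 higher and 0 lower for 25 h against 13 h in enterocytes. In goblet cells DESeq2 gave 3 higher and 0 lower at 13 h and 14 higher at 25 h. For goblet cells against enterocytes in DMSO it gave 10 lower, and for the interaction at 25 h 0 higher and 0 lower. Total-count scaling gave 35 higher and 0 lower in goblet cells at 13 h, 37 lower for goblet cells against enterocytes in DMSO, where it moved the median of all genes to -0.18, and 3 and 11 higher for the interaction at 13 h and 25 h; in the last, 91.7% of called members were higher, beside 80% with TMM. The interaction at 25 h had 7 higher with RLE scaling, 2 with cells of at most 10% mitochondrial UMIs and 9 with doublets removed. Of members called in goblet cells against enterocytes at 13 h, 36.4% were higher with TMM and 57.1% with RLE. No filter on low counts gave 8 lower in enterocytes at 25 h, and all cells in place of enterocytes gave 1 lower for 25 h against 13 h.

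The summed level with cells of at most 10% mitochondrial UMIs was 0.464%, 0.522% and 0.557% in enterocytes in DMSO, 13 h and 25 h, and 0.473% and 0.518% in goblet cells at 13 h and 25 h. Thinned, it was 0.438% in DMSO and 0.522% at 25 h in enterocytes and 0.445% and 0.500% in goblet cells at 13 h and 25 h; with doublets removed, 0.466% and 0.515% in goblet cells. Left out of the denominator were goblet markers, the mitochondrial genome and cytosolic ribosomal proteins, which gave 0.540%, 0.614% and 0.690% in enterocytes and 0.481%, 0.638% and 0.727% in goblet cells; without Mrps28 the goblet sum at 25 h was 0.514%. These last changes were added after seeing the data. The cause of these shifts was not tested beyond the fewer UMIs of thinning and the smaller denominator.

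With each library left out in turn, enterocytes gave 24 to 38 higher and 6 to 12 lower at 13 h, 36 to 48 and 3 to 6 at 25 h, and 10 to 21 and 0 to 2 for 25 h against 13 h. Goblet cells gave 5 to 20 higher and 0 to 1 lower at 13 h, 22 to 37 and 1 to 1 at 25 h, and 0 to 2 and 0 to 0 for 25 h against 13 h. Goblet cells against enterocytes in DMSO gave 2 to 3 higher and 9 to 27 lower, and the interaction 0 to 1 and 0 to 0 at 13 h and 1 to 5 and 0 to 1 at 25 h. Where an arm was left with 1 library, it was assumed to vary like the other groups. Deviations of same-numbered libraries from their group means correlated between -0.03 and 0.01, so no pairing by number was seen. Counting noise in genes of low count also draws such a correlation toward none, so it cannot decide whether the samples were paired. A replicate block gave 35 higher and 7 lower at 13 h, 48 and 5 at 25 h and 22 and 2 for 25 h against 13 h in enterocytes, and 20 and 1, 36 and 1, and 0 and 0 in goblet cells.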
